A study of Mus musculus with 7 samples.

Results

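Cathepsins and legumain are peptidases of endosomes and lysosomes. The members described here were the 9 cathepsin genes Ctsa, Ctsb, Ctsc, Ctsd, Ctse, Ctsh, Ctsl, Ctss and Ctsz, and the legumain gene Lgmn. They were picked by symbol in the platform annotation. All 10 members had a probeset naming that gene alone, 1 probeset each, out of 19938 genes measured in this way. The cells were lung CD11b+ conventional dendritic cells (cDC2s), gated as Cd11c+ Mhc2+ Cd11b+ cells without Ly6c or Cd64. Each of the 7 arrays held total RNA from a pool of 10 female C57Bl/6 mice, so a pool, not a mouse, is the replicate. The groups were wild type mice given PBS (2 arrays), wild type mice given 100 µg of house dust mite extract (2 arrays), and Irf3-deficient mice given the same extract (3 arrays), all taken 12 hours after treatment. Nothing in the sources used here gives the allele behind the Irf3 deficiency or the animals' age, and Irf3-deficient mice given PBS were not analysed here, so the genotypes can be compared only after the extract. Pools of 1 group are separate in the labels, which do not say whether they were prepared on separate days, and p-values measure only the spread between these pools.

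Cathepsins are made as inactive precursors, sorted to acidic compartments and cut into active enzymes there. Most are cysteine proteases of the papain family, cathepsins D and E are aspartic proteases, cathepsin A is a serine carboxypeptidase, and legumain cuts after asparagine. In dendritic cells they break down endocytosed antigen, trim the invariant chain that guards the peptide groove of MHC class II, and cut endosomal Toll-like receptors into their signalling form. IRF3, missing in the third group, is a transcription factor that acts downstream of nucleic acid and Toll-like receptor sensing to induce interferon-beta.

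Promoter sequence was available for 7 of the 10 members, with 9 windows in the RefSeq table (GRCm38.p6), each running from 250 bases before to 50 bases after an annotated start. The following 3 motifs were looked for on both strands: CACGTG, the E-box core of the element bound by the lysosomal regulator TFEB; the core bound by IRF factors, which is GAAA, any 2 bases and GAAA again; and TTCNNNGAA, bound by STAT factors. The CACGTG letters were present in 4 of the 9 windows, against 7.15% of all 32851 windows in the table. The IRF core was present in 1 of 9 windows (3.44% of all windows) and TTCNNNGAA in 1 of 9 (8.3%). The bases before the start are printed for Ctsa, Ctsd and Ctsl, the members that fell in treated wild type cells, and for Ctss, the member that was lowest without Irf3. Capitals mark CACGTG in the first 3 and GAAACCGAAA in Ctss.
Ctsd, chr7:142387828-142388077, minus strand: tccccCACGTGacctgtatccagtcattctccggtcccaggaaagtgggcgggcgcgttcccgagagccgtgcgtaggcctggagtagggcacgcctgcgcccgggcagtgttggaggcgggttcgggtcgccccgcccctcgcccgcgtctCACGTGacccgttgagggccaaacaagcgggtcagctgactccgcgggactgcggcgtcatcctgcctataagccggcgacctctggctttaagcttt
Ctsa, chr2:164833523-164833772, plus strand: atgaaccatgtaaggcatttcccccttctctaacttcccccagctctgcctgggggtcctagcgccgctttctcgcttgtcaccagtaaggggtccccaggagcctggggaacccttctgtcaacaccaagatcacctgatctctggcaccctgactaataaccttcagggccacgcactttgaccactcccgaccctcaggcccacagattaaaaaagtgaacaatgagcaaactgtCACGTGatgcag
Ctsl, chr13:64370521-64370770, minus strand: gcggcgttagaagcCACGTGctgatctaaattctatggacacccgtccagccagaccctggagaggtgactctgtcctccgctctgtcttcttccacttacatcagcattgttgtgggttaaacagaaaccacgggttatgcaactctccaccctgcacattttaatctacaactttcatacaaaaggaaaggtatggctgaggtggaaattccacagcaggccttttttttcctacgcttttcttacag
Ctss, chr3:95526536-95526785, plus strand: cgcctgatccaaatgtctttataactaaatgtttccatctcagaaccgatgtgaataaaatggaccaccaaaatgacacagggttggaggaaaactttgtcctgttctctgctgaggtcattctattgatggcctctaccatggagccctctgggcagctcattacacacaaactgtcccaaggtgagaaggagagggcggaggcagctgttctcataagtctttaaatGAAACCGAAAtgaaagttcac
In Ctsd the CACGTG letters began 245 and 98 bases before the start, in Ctsa 12 bases before it with another copy just after it, and in Ctsl 236 bases before it. The first annotated start of Ctsa had none of the 3 motifs in its window. The fourth window with CACGTG belonged to the second annotated start of Lgmn, 49 bases before it. Of the remaining members with a window, Ctsc held TTCNNNGAA 236 bases before its start, and Ctsz held none of the 3 motifs. Which start these cells use, and which factors bind there, was not measured.

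Values are deposited log2 expression levels, so a difference of 1 is a doubling, and levels of different genes are not compared because each rests on other probes. Group differences were tested with limma on all 7 arrays, and adjusted p-values are by Benjamini-Hochberg over the 19938 genes. A gene rose, fell or differed only where the adjusted p was under 0.05. Irf3 itself followed the labels, at 9.48 to 9.59 in the 4 wild type arrays and 8.13 to 8.30 in the 3 deficient ones. Array-to-array correlation was 0.995 to 0.997 within groups and 0.973 to 0.990 between them. The dendritic cell genes Itgax, Flt3, Irf4, Zbtb46 and Cd209a were all well lit, with levels from 9.51 to 13.96 in the 7 arrays. Signal of monocyte and interstitial macrophage markers and of epithelial markers was also present and moved between the groups, as given beside the results below.

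In wild type cDC2 pools 3 lysosomal peptidase genes fell with the extract, Ctsd by 1.88-fold, Ctsa by 1.48-fold and Ctsl by 1.48-fold, and Ctsz rose by 1.29-fold. Such bulk pools cannot tell fewer cells of a type from less RNA per cell. In treated Irf3-deficient cells the same 3 genes were higher than in treated wild type, by 1.56-fold, 1.60-fold and 1.36-fold. Ctss, Lgmn and Ctsz were lower there by 1.58-fold, 1.28-fold and 1.25-fold. Ctss was the only member that also differed between treated Irf3-deficient and PBS-treated wild type cells, where it was 1.45-fold lower. In all, 4 of the 10 members were called in the wild type response, where 17.6% of all genes were called, and 34.7% of the 6649 genes with a mean level of 9 or more. Between the treated genotypes 6 of 10 were called, against 19.7% of all genes and 40.5% of those brighter genes. Between treated Irf3-deficient and PBS-treated wild type cells it was 1 of 10, against 10.8% and 22.4%. That call was lower, as were 8.77% of the brighter genes, with 13.6% higher. Since 9 of the 10 members are among the brighter genes, the first and last of these shares lie close to or below their background. Both of the first comparisons use the same treated wild type arrays, once added and once subtracted, so opposite differences in them are not independent.

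**Figure D1:**
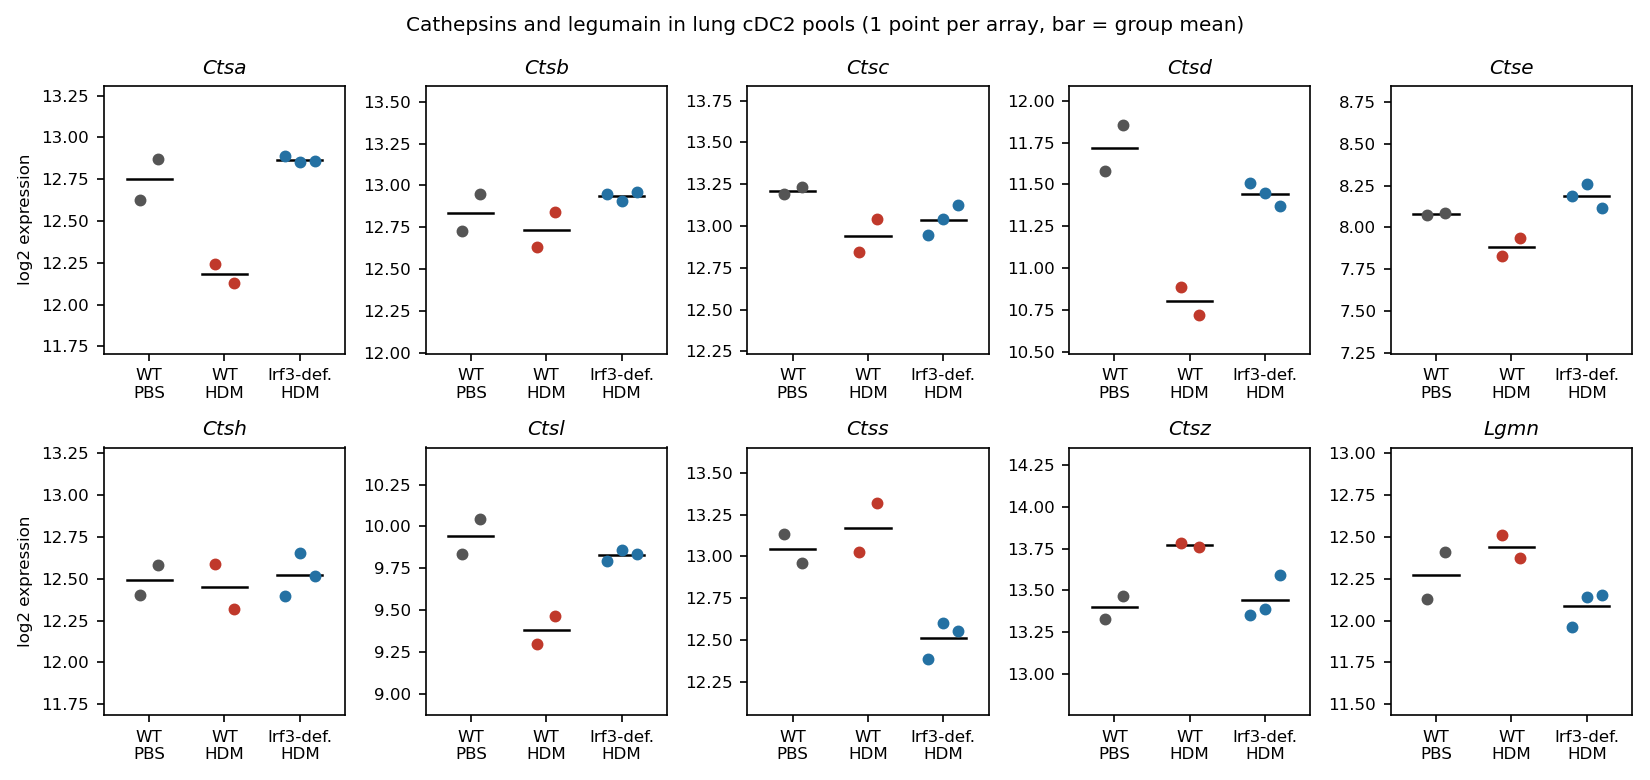
Log2 expression of the 10 genes (y axis, each panel spanning 1.6 log2 units) in the 3 groups (x axis), with 1 point per array and a bar at the group mean. Ctsa, Ctsd and Ctsl are lowest in the 2 treated wild type arrays, and Ctss is lowest in the 3 Irf3-deficient arrays.

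**Figure D2:**
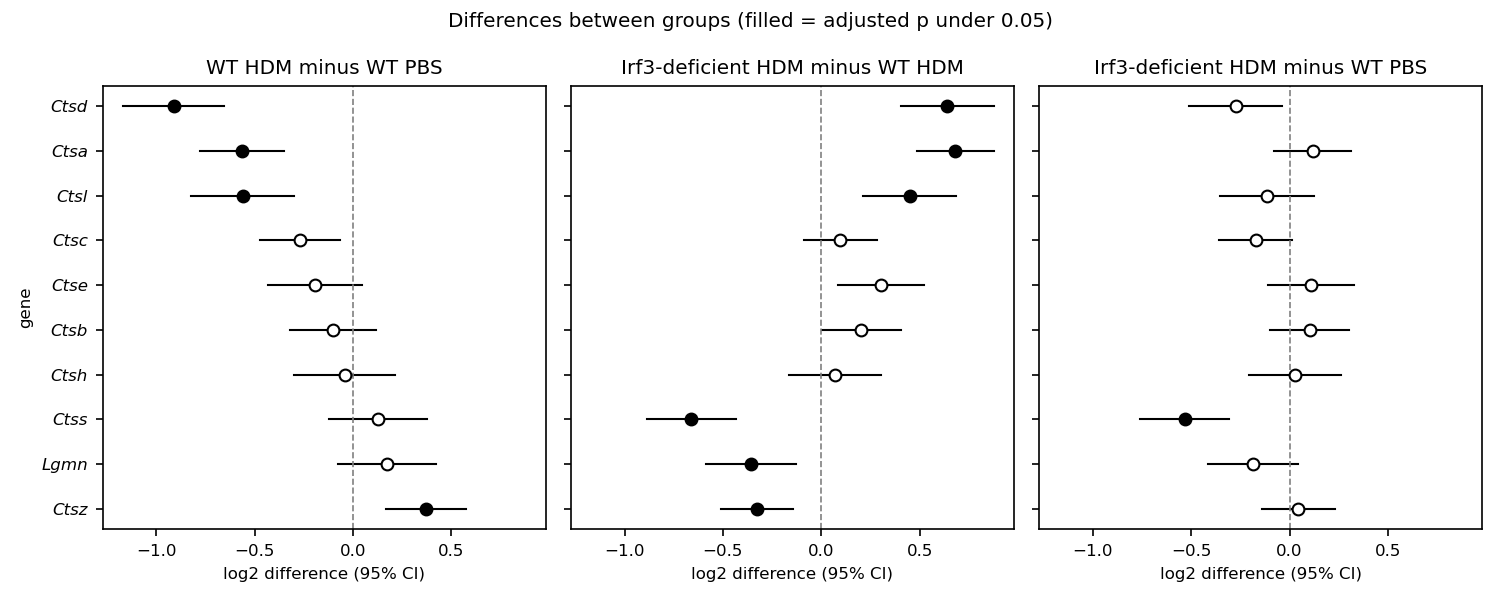
Log2 differences (x axis) of the 10 genes (y axis) in the 3 comparisons, with 95% confidence intervals and filled points where the adjusted p was under 0.05. Filled points mark 4 genes on the left, 6 in the middle and Ctss alone on the right.

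Ctsd (probeset 10569319) encodes cathepsin D, an aspartic endopeptidase that carries out much of the bulk protein breakdown in lysosomes. Its level was 11.58 and 11.86 in the PBS-treated wild type arrays, 10.89 and 10.72 in extract-treated wild type, and 11.51, 11.45 and 11.37 in treated Irf3-deficient. No group overlapped another, with the treated wild type arrays lowest and the Irf3-deficient ones in between. The fall in wild type was -0.91 ± 0.12 (SE, 95% CI -1.17 to -0.65, adjusted p = 0.000155), the largest difference of any member in the 3 comparisons. Irf3-deficient cells stood 0.64 ± 0.11 above treated wild type (adjusted p = 0.0011). Against PBS-treated wild type they stood at -0.27 (95% CI -0.51 to -0.04), which did not pass (adjusted p = 0.146).

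Ctse, the gene of the related aspartic protease cathepsin E of endosomes, had a signal near the middle of the arrays, whose medians lay between 7.6 and 7.69, and no detection call was available. It measured 8.07 and 8.09 with PBS, 7.83 and 7.94 in extract-treated wild type, and 8.19, 8.26 and 8.12 in Irf3-deficient cells. The groups did not overlap, but the differences were small and none passed. The difference nearest to passing was 0.30 ± 0.10 between the treated genotypes (adjusted p = 0.0531), and it passed with dim genes left out (0.30, adjusted p = 0.0356), without the intensity trend (0.30, adjusted p = 0.039) and with array weights (0.32, adjusted p = 0.0332).

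Ctsa (probeset 10478594) encodes cathepsin A, the carboxypeptidase that also protects beta-galactosidase and neuraminidase 1 in a lysosomal complex. It measured 12.63 and 12.87 with PBS, 12.24 and 12.13 in extract-treated wild type, and 12.89, 12.85 and 12.86 in treated Irf3-deficient cells. Both treated wild type arrays lay below every other array, and the Irf3-deficient arrays lay within 0.04 of each other. With treatment it fell in wild type, at a log2 change of -0.56 ± 0.10 (adjusted p = 0.00147). It was 0.68 ± 0.09 higher in Irf3-deficient than in treated wild type cells (adjusted p = 0.00018). Treated Irf3-deficient and PBS-treated wild type cells differed by 0.12 (95% CI -0.08 to 0.31, adjusted p = 0.507). Its partners, chosen for that role after their values were seen, did not all follow. Glb1, the beta-galactosidase gene, fell in wild type by a log2 change of -0.62 (adjusted p = 0.00484) and stood at 0.11 between the treated genotypes (adjusted p = 0.651), while Neu1, the neuraminidase gene, passed in neither (0.19 and -0.29).

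Ctsl (probeset 10410124) encodes cathepsin L, a cysteine endopeptidase that removes the invariant chain in thymic epithelium and acts broadly in lysosomes. Its levels were 9.84 and 10.05 with PBS, 9.30 and 9.46 in extract-treated wild type, and 9.79, 9.86 and 9.84 in Irf3-deficient cells. The treated wild type arrays were again the lowest, and the other 5 arrays lay together. The fall in wild type was -0.56 ± 0.12 (adjusted p = 0.00554) and the difference between treated genotypes 0.45 ± 0.11 (adjusted p = 0.0112). Each rested on a single array for its call, since without PBS-treated wild type replicate 2 the fall was -0.46 (adjusted p = 0.058), and without treated wild type replicate 1 the genotype difference was 0.37 (adjusted p = 0.10).

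Ctss (probeset 10494271) encodes cathepsin S, the cysteine protease that makes the last cut of the invariant chain in dendritic cells and B cells. It measured 13.13 and 12.96 with PBS, 13.03 and 13.32 in extract-treated wild type, and 12.38, 12.60 and 12.55 in Irf3-deficient cells. The wild type groups overlapped, and all 3 Irf3-deficient arrays lay below all 4 wild type arrays. Treatment gave 0.13 ± 0.11 in wild type (95% CI -0.12 to 0.38, adjusted p = 0.54). Irf3-deficient cells were lower than treated wild type by a difference of -0.66 ± 0.10 (adjusted p = 0.000652) and lower than PBS-treated wild type by -0.53 ± 0.10 (adjusted p = 0.00606). The latter did not pass without PBS-treated wild type replicate 1 (-0.45, adjusted p = 0.106). Since no untreated Irf3-deficient pool was analysed here, whether the lower level precedes treatment was not tested.

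Ctsb, the gene of cathepsin B, which works both as an endopeptidase and by clipping dipeptides from the end of a chain, did not pass in any comparison. Its arrays ranged from 12.63 to 12.96, with 12.73 and 12.95 for PBS, 12.63 and 12.84 for treated wild type, and 12.95, 12.91 and 12.96 for Irf3-deficient cells. The Irf3-deficient arrays lay above both treated wild type arrays by a mean of 0.20 (95% CI 0.003 to 0.40, adjusted p = 0.166). The wild type difference was -0.10 (95% CI -0.32 to 0.12, adjusted p = 0.588).

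Among the exopeptidases, which trim the ends of chains, Ctsz (probeset 10490212, cathepsin X, a carboxypeptidase) was the member that rose. It measured 13.33 and 13.47 with PBS, 13.78 and 13.76 in extract-treated wild type, and 13.35, 13.39 and 13.59 in Irf3-deficient cells. The treated wild type arrays were the highest, and the other groups overlapped. The rise was 0.37 ± 0.09 (adjusted p = 0.0143) and Irf3-deficient cells were lower than treated wild type by -0.33 ± 0.08 (adjusted p = 0.0158). Both calls depended on single arrays: the rise was 0.36 without treated wild type replicate 1 (adjusted p = 0.0519) and 0.30 without PBS-treated wild type replicate 1 (adjusted p = 0.132). The genotype difference was -0.30, -0.32 and -0.34 without Irf3-deficient replicate 2, treated wild type replicate 1 and treated wild type replicate 2 (adjusted p = 0.0673, 0.0692 and 0.0605). The rise was also not called after quantile normalisation of the genes tested (0.28, adjusted p = 0.0743).

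Ctsc, which encodes the dipeptidyl peptidase that activates granule serine proteases, had 13.19 and 13.23 with PBS, 12.84 and 13.04 in extract-treated wild type, and 12.95, 13.04 and 13.13 in Irf3-deficient cells. Both PBS arrays lay above the others. The wild type difference of -0.27 (95% CI -0.47 to -0.07) did not pass (adjusted p = 0.0708), although it did without treated wild type replicate 2 (-0.37, adjusted p = 0.0398), without Irf3-deficient replicate 1 (-0.27, adjusted p = 0.0486), with dim genes left out (-0.27, adjusted p = 0.0498) and after quantile normalisation (-0.36, adjusted p = 0.0212). Ctsh, an aminopeptidase gene, ranged from 12.32 to 12.65 over the 7 arrays, and all 3 groups overlapped. Its differences of -0.04, 0.07 and 0.03 had confidence intervals that reached at most 0.30 from 0 on either side.

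Lgmn (probeset 10402268) encodes legumain, which starts invariant chain breakdown in some cells and converts cathepsin precursors to their 2-chain forms. It measured 12.13 and 12.41 with PBS, 12.51 and 12.38 in extract-treated wild type, and 11.96, 12.14 and 12.16 in Irf3-deficient cells. The wild type groups overlapped, and the Irf3-deficient arrays lay below both treated wild type arrays. The treated genotypes differed by -0.36 ± 0.11 (adjusted p = 0.0305), and neither the wild type response of 0.17 (adjusted p = 0.382) nor the difference from PBS-treated wild type of -0.18 (adjusted p = 0.344) passed. The call was lost under several alternatives. It was -0.29 without treated wild type replicate 1 (adjusted p = 0.177), -0.42 without treated wild type replicate 2 (adjusted p = 0.0516), -0.29 without Irf3-deficient replicate 1 (adjusted p = 0.0782), -0.39 without Irf3-deficient replicate 2 (adjusted p = 0.0577), and -0.32 after quantile normalisation (adjusted p = 0.0723).

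Over the 3 groups together, 5 of 10 members passed the F test, namely Ctsd, Ctsa, Ctss, Ctsl and Ctsz, where 25.5% of all genes did. The F test share among the brighter genes, where most members lie, was not computed. Likeness of pattern was measured as the root mean square difference of the 7 array values after each gene's own mean was taken off. This measure was not scaled, so genes that move little lie close to each other. Among members the closest pair was Ctsb and Ctse, at 0.09, whose group means ranged over only 0.20 and 0.30. Ctsz and Lgmn differed by 0.12, Ctsb and Ctsc by 0.13, Ctsa and Ctsl by 0.14, and Ctsd by 0.17 from both Ctsl and Ctsa. Other pairs lay between these, and Ctsl was nearer to Ctse (0.155) and Ctsc (0.161) than to Ctsd (0.168). The 3 members that fell therefore do not stand apart by this measure. Ctss was farthest from Ctsd and Ctsa, at 0.58 from each. Outside the family, for the members with the widest range of group means, the genes most like Ctsd were Ppt2, a lysosomal thioesterase gene (0.05), Uggt1, a folding checkpoint enzyme of the endoplasmic reticulum (0.06), and the transcription factor gene Zfhx3 (0.07). Those most like Ctsa were Ctns, the cystine exporter of lysosomes (0.05), the calcium-binding protein gene S100a1 (0.05) and the tetraspanin gene Cd81 (0.06). Ppt2 stood at 9.27 and 9.44, then 8.49 and 8.37, then 8.98 to 9.09 in the 3 groups in the same order, and Ctns at 10.06 and 10.25, then 9.70 and 9.44, then 10.31, 10.23 and 10.24. The choice by likeness fixes the direction of these 6 genes, so their log2 differences, from -1.04 to -0.56 in wild type and from 0.59 to 0.76 between the treated genotypes, are a description only.

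Of 12 other mouse cathepsin genes measured, Ctsk, best known from bone resorption, rose in wild type by a log2 change of 0.48 (adjusted p = 0.0384), Ctsg, a granule protease gene of neutrophils, by 0.35 (adjusted p = 0.0426), and Ctsf fell by 0.46 (adjusted p = 0.0312). That is 16.7% higher and 8.33% lower, beside 8.35% and 9.23% of all genes. Group means of Ctsk (7.77 to 8.26) and Ctsf (7.50 to 7.96) lay near the array medians of 7.6 to 7.69. Ctsg measured 5.93 to 6.44, below the array medians and within the range of the placental cathepsins below, so it is not shown to be above background. None of the 12 passed limma's adjusted threshold in either of the other comparisons, where 2 (Ctsg and Cts8) and 3 (Ctsf, Ctsk and Cts7) had an unadjusted p under 0.05. Of all genes, 19.7% and 10.8% were called in those comparisons. Ctso and Ctsw did not pass anywhere, with wild type differences of -0.11 and 0.34. The genes Ctsj, Ctsq, Ctsr, Cts6, Cts7, Cts8 and Ctsll3, most of them from the rodent placental cathepsin cluster, had group means between 4.90 and 6.95, and none passed.

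Several inhibitor genes were called. Of 15 cystatin, serpin and related inhibitor genes, 5 rose and 1 fell in wild type, with a median of 0.01 (all genes 8.35% higher, 9.23% lower, median 0.03). Serpinb9, best known as a granzyme B inhibitor, rose from 11.14 to 12.97, by 1.84 ± 0.10 (adjusted p = 8.77e-08), and its relative Serpinb6b by 1.71 ± 0.11 (adjusted p = 3.37e-07). Serpinb8, an inhibitor of furin-like proteases, fell by 1.00 (adjusted p = 0.000112). Between the treated genotypes 1 was higher and 3 were lower (all genes 10.7% and 9%): Serpinb8 was higher by 0.94, Serpinb6b stood at -0.86 and Serpinb9 at -0.53. In treated Irf3-deficient against PBS-treated wild type cells 3 were higher and 1 lower (all genes 5.89% and 4.91%), with Serpinb9 at 1.31, Serpinb6b at 0.85 and Ctla2b, a homologue of a cathepsin propeptide, at -0.44. Cst7, the gene of cystatin F, which blocks several lysosomal cathepsins, falls outside the naming rule and was chosen after its values were seen. It rose in wild type by 1.35 (adjusted p = 1.47e-05), was lower in Irf3-deficient than treated wild type cells at -0.69 (adjusted p = 0.0014), and was above PBS-treated wild type by 0.67 (adjusted p = 0.00383). Cst3, the cystatin C gene, had group means of 14.44 to 14.51 and passed in no comparison, at a level near the top of the arrays' range (highest values 14.8 to 14.9), where a change could be compressed.

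The largest set around the members was that of other lysosomal enzymes and membrane proteins, with 45 genes measured. In wild type 21 fell and 6 rose (median -0.23), among them Sgsh, a heparan sulfatase gene, at -1.10 ± 0.13 (adjusted p = 6.12e-05) and Hexa, a hexosaminidase subunit, at -0.85 ± 0.10 (adjusted p = 6.72e-05). Of the brighter genes, 18% fell and 16.7% rose. The risers included Npc2, a cholesterol carrier of the lysosome lumen, at 0.77, Gla, alpha-galactosidase, at 0.49, and Lamp1, a major membrane glycoprotein, at 0.28 (adjusted p = 0.0457). The risers numbered 1 without treated wild type replicate 2, 2 without PBS-treated wild type replicate 1, and 3 without PBS-treated wild type replicate 2 or Irf3-deficient replicate 2 or 3. In Irf3-deficient against treated wild type cells 15 were higher and 6 lower (median 0.22), against 22.7% and 17.9% of the brighter genes. Manba, beta-mannosidase, was higher by 0.73 and Npc1, the membrane partner of Npc2, by 0.65, while Npc2 stood at -0.81, Grn, the progranulin gene, at -0.51 and Lamp1 at -0.30. Without treated wild type replicate 2 these counts were 9 higher and 2 lower. Against PBS-treated wild type, 2 were higher and 7 lower in Irf3-deficient cells, beside 13.6% and 8.77% of the brighter genes. The acid phosphatase genes Acp2 and Acp5 stood at 0.85 and 0.57, and Hexa and Naglu at -0.65 and -0.57. The higher count was 1 without PBS-treated wild type replicate 1. The lower count was 3 without PBS-treated wild type replicate 1, 2 without PBS-treated wild type replicate 2, 3 without Irf3-deficient replicate 2 and 4 without Irf3-deficient replicate 3.

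**Figure D3:**
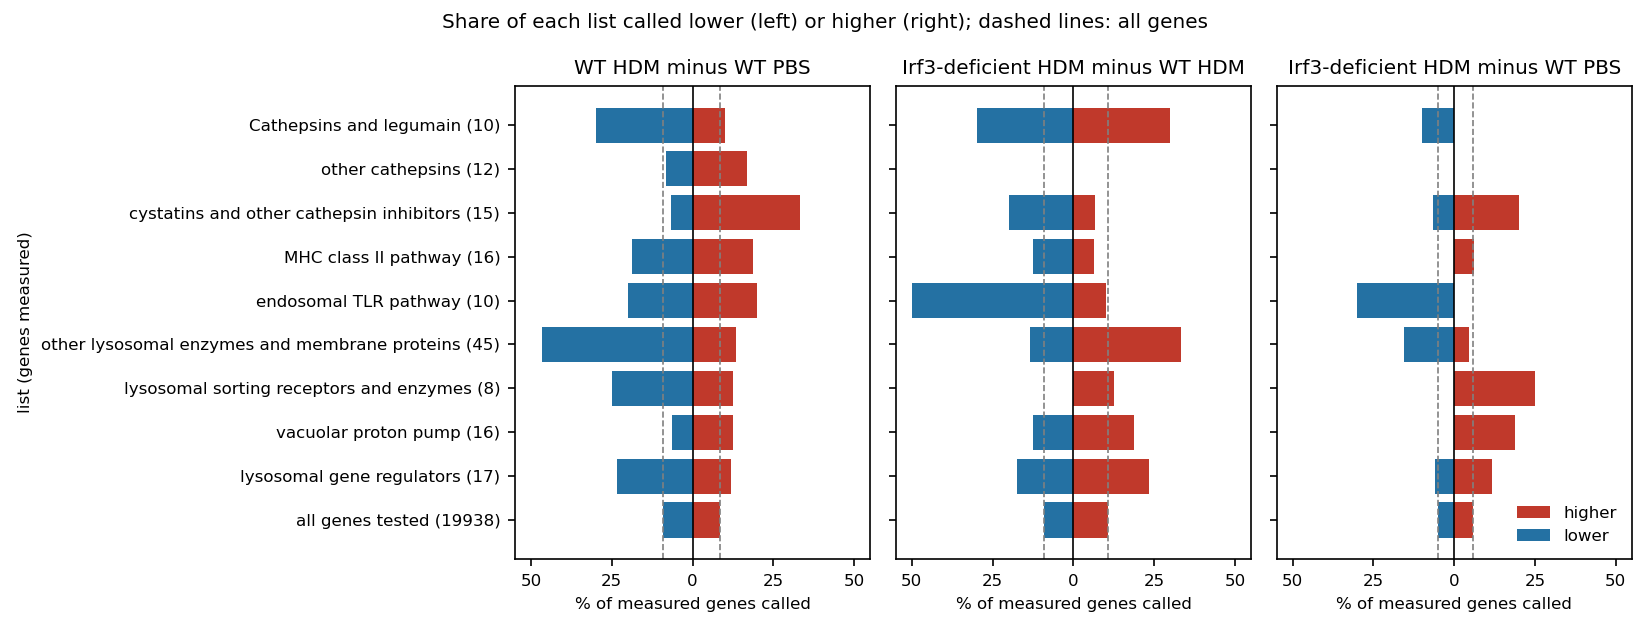
Share of each list's measured genes called lower (left of 0) or higher (right of 0) in the 3 comparisons, in percent on the x axis, with the number measured in brackets and dashed lines at the shares over all 19938 genes. Among the lists drawn, which leave out the cell type markers, the other lysosomal genes show the longest bar to the left in treated wild type cells, with 21 of 45 lower.

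In the MHC class II pathway, which the cathepsins feed, calls went both ways. In wild type 3 of 16 measured genes rose and 3 fell (median -0.10), 18.8% each way, near the 16.7% and 18% of the brighter genes. The invariant chain gene Cd74 had group means of 14.20 to 14.23 and H2-Aa of 14.09 to 14.14, with no difference that passed. Both lie near the highest value of any probeset, 14.8 to 14.9 per array, where a change could be compressed. Sppl2a, the intramembrane protease that clears the last fragment of the invariant chain, rose by 0.68 ± 0.10 (adjusted p = 0.000324). It was lower in Irf3-deficient than in treated wild type cells, at -0.69 ± 0.09 (adjusted p = 0.000153). H2-DMa, a subunit of the peptide-loading chaperone, fell by 0.55 (adjusted p = 0.00734). It was higher in Irf3-deficient than in treated wild type cells by 0.49 (adjusted p = 0.00758). Against PBS-treated wild type neither Sppl2a (-0.0052) nor H2-DMa (-0.0584) passed. The regulator gene Rfx5 rose by 0.63 and stood at -0.45 between the treated genotypes, and the tetraspanin gene Cd9 fell by 0.57. Between the treated genotypes 1 was higher and 2 lower, beside 22.7% and 17.9% of the brighter genes. Against PBS-treated wild type the only call was H2-Eb2, higher by 0.87 (adjusted p = 0.000472), where 13.6% of the brighter genes were higher. Ifi30, a thiol reductase gene of the same compartments, stood at 0.21 in wild type (adjusted p = 0.102).

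Endosomal Toll-like receptors, which need cathepsin cleavage, split by gene. In wild type 2 of 10 genes rose and 2 fell (median 0.21), near the shares of the brighter genes (16.7% and 18%). Tlr9 rose by 0.84 ± 0.22 (adjusted p = 0.0167) and Tlr7 by 0.69 ± 0.20 (adjusted p = 0.035), while Tlr8 fell by 1.17 ± 0.15 (adjusted p = 0.000126) and the chaperone gene Hsp90b1 fell by 0.42. Between the treated genotypes 5 were lower and 1 higher (median -0.27), where 17.9% and 22.7% of the brighter genes were, with Tlr9 at -1.09 (adjusted p = 0.00164), Tlr7 at -0.70, the endolysosomal transporter gene Slc15a4 at -0.57 and Tlr8 at 0.85. Unc93b1, which carries these receptors to endosomes, was lower in Irf3-deficient cells than in both wild type groups, at -0.32 and -0.36. In the comparison with PBS-treated wild type 3 were lower, as were 8.77% of the brighter genes.

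Sorting and acidification genes were called in both directions. Among 8 sorting genes 1 rose and 2 fell in wild type, beside 16.7% and 18% of the brighter genes. Gga3 rose by 0.64, whereas Lrp1, an endocytic receptor gene, fell by 1.03 ± 0.09 (adjusted p = 6.17e-06) and Sort1, the sortilin gene, fell by 0.54. Lrp1 was higher by 0.82 ± 0.08 in Irf3-deficient than in treated wild type cells (adjusted p = 2.42e-05), the only call of the list there. Gga3 and Gga2 stood 0.53 and 0.48 above PBS-treated wild type. Of 16 proton pump genes 2 rose and 1 fell in wild type (Atp6v1d at 0.75, Atp6v0a1 at 0.42, Atp6ap1 at -0.49), and 3 were higher and 2 lower between the treated genotypes. The brighter genes had 16.7% and 18% in the first comparison and 22.7% and 17.9% in the second. Atp6ap2, an accessory subunit, was higher by 0.82 and Atp6ap1 by 0.46, while Atp6v1d and Atp6v1g1 both stood at -0.52. Against PBS-treated wild type 3 were higher, beside 13.6% of the brighter genes, among them Atp6ap2 at 0.61 and Atp6v1c1 at 0.54.

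Of 17 regulators of lysosomal genes, 2 rose and 4 fell in wild type, and 4 were higher and 3 lower between the treated genotypes. These shares lie near those of the brighter genes, 16.7% and 18% in wild type and 22.7% and 17.9% between genotypes. Tfeb, which drives lysosomal genes through the CACGTG element, passed in no comparison (0.05, -0.22 and -0.17). Its relative Mitf fell in wild type by 0.45 (adjusted p = 0.0321), was 0.93 higher in Irf3-deficient than treated wild type cells (adjusted p = 0.000168) and 0.47 above PBS-treated wild type (adjusted p = 0.0264). Tfec, another relative, was 0.79 above PBS-treated wild type (adjusted p = 0.0258). Genes of the nutrient-sensing complex on lysosomes moved both ways, with Rragd at 0.71 and Mtor at 0.60 in wild type against Lamtor4 at -0.77 and Rragb at -0.67. Between the treated genotypes Rragb was higher by 0.78, and Rraga and Rragd stood at -0.57 and -0.53. Lamtor2 stood at -0.54 against PBS-treated wild type.

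Macrophages express lysosomal peptidases abundantly. Most monocyte and interstitial macrophage markers moved with the members that fell. The mean levels of the alveolar macrophage and cDC2 markers were also lowest in treated wild type. Of 13 monocyte and interstitial macrophage markers measured, 12 fell and 1 rose in wild type (median -1.71, all genes 9.23% and 8.35%). In Irf3-deficient cells 10 were higher and 2 lower than in treated wild type (median 1.08, all genes 10.7% and 9%). Against PBS-treated wild type 4 were lower (all genes 4.91%). Their mean log2 level was 11.07 to 11.37 with PBS, 9.65 to 10.14 in treated wild type and 10.5 to 10.68 in Irf3-deficient arrays, and their summed level on the log2 scale 15.44 to 15.76, 13.88 to 14.51 and 15.09 to 15.20. The 1 riser, named after its values were seen, was Fcgr1, the CD64 gene that the gate selects against, at 8.72 and 9.30 with PBS, 10.61 and 10.99 in treated wild type and 8.99 to 9.27 in Irf3-deficient arrays. Apoe, named in the same way, had means of 13.17, 11.13 and 10.13 in the 3 groups in that order, lowest in Irf3-deficient cells. Of 9 alveolar macrophage markers 2 rose and 3 fell in wild type, and 3 were higher in Irf3-deficient than treated wild type cells, with mean levels of 9.42 to 9.45, 9.27 to 9.29 and 9.62 to 9.75. In these bulk pools fewer cells of a type and less RNA per cell cannot be told apart, and the part of the macrophage signal in the values of Ctsd, Ctsa, Ctsl and the other lysosomal genes was not tested. Of 11 epithelial, endothelial and stromal markers 5 fell and 1 rose in wild type (all genes 9.23% and 8.35%). Setting Irf3-deficient against PBS-treated wild type cells gave the same counts, but not for the same genes (all genes 4.91% and 5.89%). The risers, named after their values were seen, were Kdr in the former comparison and Epcam in the latter. Kdr had means of 8.80 with PBS, 11.43 in treated wild type and 8.69 in Irf3-deficient cells, and Epcam 9.96, 9.02 and 10.80. The endothelial genes Cdh5 (10.41, 9.58 and 9.80) and Pecam1 (9.33, 8.69 and 8.91) did not follow Kdr. The epithelial gene Sftpc (13.09, 12.51 and 11.98) did not follow Epcam. Another epithelial gene, Scgb1a1, measured 13.57 and 11.64 in the treated wild type arrays. These were also named after their values were seen. The cDC2 marker list fell in 5 of 12 cases and rose in 3 in wild type, with mean levels of 12.27 with PBS, 12.01 to 12.08 in treated wild type and 12.25 to 12.33 in Irf3-deficient cells. Between the treated genotypes 5 cDC2 markers were higher and 1 lower (all genes 10.7% and 9%). In wild type 2 of 10 neutrophil markers, 3 of 9 T and NK cell markers and 3 of 9 for B cells and plasmacytoid dendritic cells rose and 1 T and NK cell marker fell, where 8.35% of all genes rose and 9.23% fell. Between the treated genotypes 1 neutrophil marker was higher, T and NK cell markers were 2 higher and 4 lower, and markers of B cells and plasmacytoid dendritic cells 1 higher and 2 lower (all genes 10.7% and 9%). Of 8 markers of the other conventional dendritic cell type, cDC1, 2 rose and 3 fell in wild type. In Irf3-deficient cells 1 was higher and 3 were lower than in treated wild type. Against PBS-treated wild type the counts were the same, but not for the same genes (all genes 5.89% and 4.91%). Irf8 had means of 10.99 with PBS, 12.60 in treated wild type and 11.40 in Irf3-deficient cells, and Cadm1 9.83, 8.95 and 9.43. Their mean log2 level was 9.89 to 10.22 with PBS, 9.99 to 10.24 in treated wild type and 9.68 to 9.87 in Irf3-deficient arrays. That mean was lowest where Ctss was lowest, but single markers did not all follow it. Xcr1 had means of 9.47, 9.52 and 9.87 in the 3 groups and Clec9a 9.09, 9.71 and 9.13, while Wdfy4 had 12.47, 11.64 and 11.42. Tlr3 is in both this list and that of the endosomal Toll-like receptors. The part of cDC1 markers in the Ctss values was not tested.

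**Figure D4:**
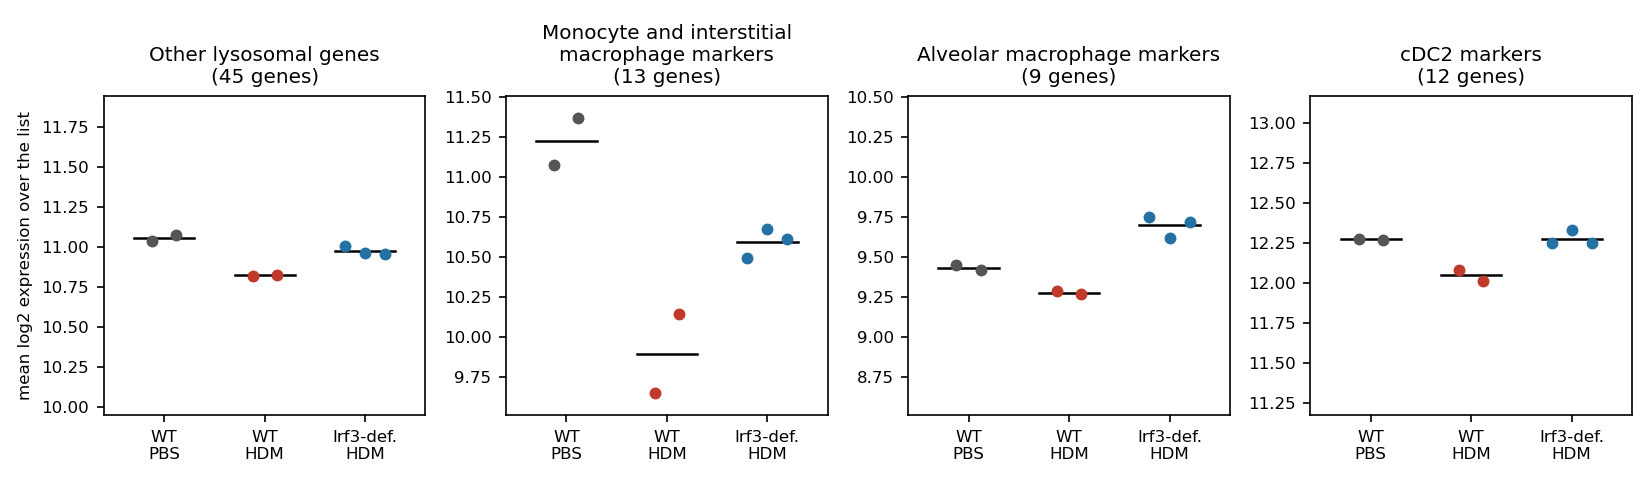
Mean log2 expression over 4 gene lists (y axis, each panel spanning 2 log2 units) in the 3 groups (x axis), with 1 point per array and a bar at the group mean. Monocyte and interstitial macrophage markers span the widest range, from 9.65 in treated wild type to 11.37 with PBS, and the other lysosomal genes move the same way over 10.82 to 11.08.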

How the data were processed

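Affymetrix Mouse Gene 1.0 ST arrays were run on RNA of 7 sorted cell pools, per the labels. The deposited values are log2 expression per probeset (35556 probesets), and the tools listed, per the submitters' processing notes, are R 3.2.1, oligo and RMA, with no roles given. RMA usually includes quantile normalisation, after which a shift shared by most genes cannot be seen. The genome build and any batch were not given in the sources used here. Probesets with a single gene symbol (21789) were named through the platform annotation, updated by Entrez identifier, and the brightest probeset by mean was kept per gene. limma 3.58.1 under R 4.3.3 was fitted with 1 mean per group (lmFit, eBayes with an intensity trend; 4 residual and 8.34 prior degrees of freedom), two-sided, with Benjamini-Hochberg adjustment. No filter was applied. The fit was tested on simulated data.

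Members, 8 gene lists and 8 marker lists were chosen with earlier results of these data known, and support no claim of independence. Single-symbol probesets covered 218 of the 241 names in these lists, and the others were not analysed under those names. Among the others, Limp2 is another name for Scarb2, which is also listed and was measured. Named are all members, other cathepsins, a small panel, the genes most like the 2 members of widest range, and up to 2 genes per list, direction and comparison with the smallest p. Correlations of deviations between same-numbered arrays were -0.23 to 0.18, and numbers were not used as pairs. With 2 arrays in each wild type group, crossed numbers have the wild type value of -0.23 with the opposite sign. The check therefore cannot tell whether differently numbered arrays share a preparation. The number of arrays limits precision.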

Additional observations from a re-analysis of the deposited data

How the results depend on the processing

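Each member's differences were recomputed under the same alternatives in all 3 comparisons, leaving out each array included, and with crossed replicate numbers in the wild type comparison only. Of these values 452 kept their direction and side of the threshold, 15 lost a call, 7 gained one and 16 changed sign. Ctsa and Ctsd kept their calls in both comparisons that called them under all alternatives run, as did Ctss between the treated genotypes. Sign changes were all in differences that did not pass. Leaving out 1 array, they came in wild type for Ctsb (-0.214 to 0.0096), Ctsh (-0.178 to 0.0934) and Ctss (-0.0181 to 0.273), between the treated genotypes for Ctsc (-0.0014 to 0.196) and Ctsh (-0.0644 to 0.207), and against PBS-treated wild type for Ctsa (-0.0056 to 0.239), Ctsb (-0.0105 to 0.213), Ctsh (-0.0611 to 0.119) and Ctsz (-0.028 to 0.115). After quantile normalisation Ctsh stood at -0.0866 and Ctsz at -0.0472 against PBS-treated wild type.

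Leaving out 1 array, members called higher and lower numbered 0 to 1 and 2 to 4 in wild type, 2 to 3 and 1 to 3 between the treated genotypes, and 0 and 0 to 1 against PBS-treated wild type. Other lysosomal genes numbered 1 to 7 and 14 to 21, 9 to 15 and 2 to 6, and 1 to 2 and 2 to 9. All genes called numbered 1243 to 1731 higher and 1086 to 1993 lower in wild type, 1276 to 2084 higher and 1286 to 1822 lower between the treated genotypes, 479 to 1261 higher and 270 to 1098 lower against PBS-treated wild type. After quantile normalisation 0 members rose in wild type. Lysosomal genes higher in wild type were 3 with array weights, with median centring, with the 2 groups alone, after quantile normalisation and with the replicate block.

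With the replicate number as a block, Lgmn stood at -0.39 between the treated genotypes (adjusted p = 0.0517), Ctsz at -0.028 against PBS-treated wild type, where lysosomal genes were 1 higher and 4 lower and 626 of all genes were lower (978 without the block). Crossing the 2 numbers of treated wild type, added after seeing the data, gave 3508 called genes in wild type against 3118 with the numbers as given and 3505 without a block. The causes of these changes were not tested. The number of arrays limits precision, and depth has no count here.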
